A study of Homo sapiens with 9 samples.

Results

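The nuclear genes for the subunits of respiratory complexes II, III and IV, for cytochrome c and for ATP synthase were followed through 9 RNA-seq libraries of 293T cells, an embryonic kidney line that carries the SV40 large T antigen. The members were a list of 39 genes, 4 of complex II, 9 of complex III, CYCS for cytochrome c, 10 of complex IV, and 15 of ATP synthase (5 of the F1 head, and 10 of the stalks and the membrane part). The list was written by gene name. All 39 were found among the 57163 genes of the count table, and all 39 passed the minimum of 1 CPM (read counts scaled to a common library size) in every comparison.

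The study overexpressed TFs in these cells and read the transcriptome 48 h later. The CLB_TFs, which the study takes as factors that preferentially bind the promoters of conserved lncRNAs, were here NRF1, E2F4, EGR1 and ZBTB7A. As control TFs it took HOXA11, RORA, TFCP2 and NKX2-8, and the ninth library was a control with no TF. Each TF was carried by a lentiviral expression plasmid with an EF1A promoter and an EGFP cassette, delivered by transfection. For the control, the labels say blank and the methods an empty plasmid. Each condition was 1 library of 1 cell line, so no fold between libraries has a replicate check, and its error is given only as an exact 95% interval for counting. Reads carry no molecular identifiers, so these intervals are the least error a value can have.

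Complex II (succinate dehydrogenase) feeds electrons from the citric acid cycle into ubiquinone, complex III (the cytochrome bc1 complex) passes them to cytochrome c, and complex IV (cytochrome c oxidase) passes them to oxygen. The proton gradient built by complexes III and IV drives ATP synthase. Complexes III and IV and ATP synthase hold a few subunits encoded in mitochondrial DNA beside many that are encoded in the nucleus. NRF1, nuclear respiratory factor 1, takes its name from its sites in the promoters of such nuclear genes, CYCS among the earliest described.

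The libraries held 14177970 to 18915400 counts, of which the 39 genes took 0.788% to 0.846%. All 8 genes listed as markers of 293T cells were at 1 CPM or more in every library, with a summed level of 1015 CPM in the NRF1 library, 1010 to 1196 CPM in the 7 other TF libraries and 1309 CPM in the control library. Of 12 markers of leukocytes, fibroblasts, hepatocytes and erythroid cells, 9 were under 1 CPM everywhere and the summed level was 8.64, 6.01 to 8.40 and 7.88 CPM in the same order. The NRF1 library stood apart from most others in its composition. It had 26166 genes with at least 1 count and the EGR1 library 26296, against 23534 to 24593 in the 6 other TF libraries and 23344 in the control library. Under TMM, which scales libraries by their shared bulk of genes, the median log2 fold change of all genes tested was -0.02 in the NRF1 library, but scaling by library totals put it at 0.13. TMM values are given unless totals are named.

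In the NRF1 library the plasmid-borne factor itself was at 2562 CPM, against 29.7 CPM in the control library, a log2 fold change of 6.42. A gene was called lower where its level was at most 0.8 of that in the control library, and higher where the control level was at most 0.8 of it. None of the 39 subunit genes was called higher there. Called higher were 22% of all genes tested, but 103 of 4484 genes of at least 50 CPM and 10 of 2065 of at least 100 CPM. By TMM all 39 were lower than in the control library, as were 52.6% of all genes tested. Their log2 fold changes were -0.38 (UQCRC2) to -0.07 (ATP5F1D) with a median of -0.22, and 7 were called lower, against 9.95% of all genes tested. With DESeq2 size factors 7 were called lower, against 1447 of all 14894 genes. By library totals the median was -0.07, against 0.13 for all genes, and 31 of 39 were below 0, against 31.5% of all genes. None was then called lower, where 2.8% of all genes were, and none higher, where 4618 of 15015 were. In bulk RNA, fewer cells and less RNA per cell cannot be told apart.

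The shift was shared with other abundant genes. Among genes of at least 50 CPM the median log2 fold change in the NRF1 library was -0.15, and 78.4% were lower. At that minimum 7 of 37 subunit genes were called lower, against 11.8% of all genes. Among genes of at least 100 CPM the median was -0.19 and 87.3% were lower, and there 5 of 30 subunit genes were called, against 14.6% of all genes. The median of those 30 was -0.22.

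**Figure D1:**
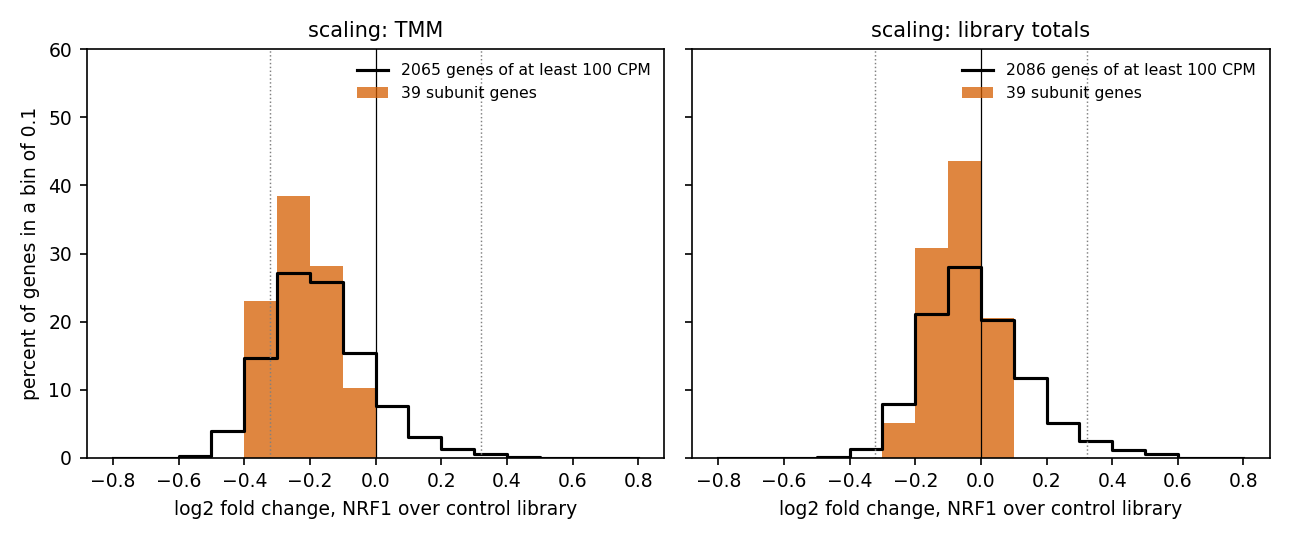
Distribution of log2 fold changes of the NRF1 over the control library, in percent of genes per bin of 0.1, for the 39 subunit genes (bars) and for genes of at least 100 CPM (line), by TMM on the left and by library totals on the right, with dotted lines at the thresholds of a call. The bars sit below 0 by TMM and straddle 0 by library totals, inside the spread of the line in both.

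By TMM the other TF libraries showed smaller shifts. The median log2 fold change of the 39 genes was -0.11 with E2F4, -0.11 with EGR1, -0.12 with ZBTB7A, -0.07 with HOXA11, -0.08 with RORA, -0.10 with TFCP2 and -0.06 with NKX2-8. With library totals the medians lay close together, at -0.07 with NRF1, -0.09 with E2F4, -0.09 with TFCP2, -0.08 with RORA and -0.06 to -0.03 with the other 4 TFs. The median of all genes tested did not, at 0.13 with NRF1 and -0.002 (RORA) to 0.034 (ZBTB7A) with the 7 other TFs. None of the 39 was called lower in any of these 7 libraries. The share of all genes tested that were called lower was 6.36% with E2F4, 4.92% with EGR1, 7.11% with ZBTB7A, 5.55% with HOXA11, 5.85% with RORA, 4.02% with TFCP2 and 12.3% with NKX2-8. None was called higher either, where 15.5% of all genes were with E2F4, 10.6% with EGR1, 10.6% with ZBTB7A, 10.3% with HOXA11, 7.1% with RORA, 6.94% with TFCP2 and 13.5% with NKX2-8. Genes of at least 50 CPM were called less often in these 7 libraries. Among them 4 of 4454 (TFCP2) to 261 of 4519 (NKX2-8) were called lower. Called higher were 9 of 4454 (TFCP2) to 361 of 4618 (E2F4).

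All 8 comparisons share 1 control library, and that library was high for these genes. It was the highest of the 9 for 20 of 39 members, against 12.8% of all genes with a mean of at least 1 CPM and 23.3% of those with a mean of at least 50 CPM. Set against the mean of the control TFs instead, the median in the NRF1 library was -0.16 and no member was called. Of all 14866 genes tested that way, 1043 were called lower and 2889 higher, with a median of -0.02. The median of the members with HOXA11, against the other control TFs, was 0.01. A rank over the 9 libraries does not lean on the control. The NRF1 library was the lowest for 29 of 39 members, against 25.8% of all genes, 46.5% of those with a mean of at least 50 CPM and 55.8% of those with a mean of at least 100 CPM. It was the highest for none, against 16.2% of all genes. That share was only 4.74% with a mean of at least 50 CPM and 2.58% with at least 100 CPM. By library totals the NRF1 library was the lowest for 8 members and the highest for 3, against 9.67% and 29.6% of all genes. The RORA library was then the lowest for 10 members, against 1539 of all 13996 genes.

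**Figure D2:**
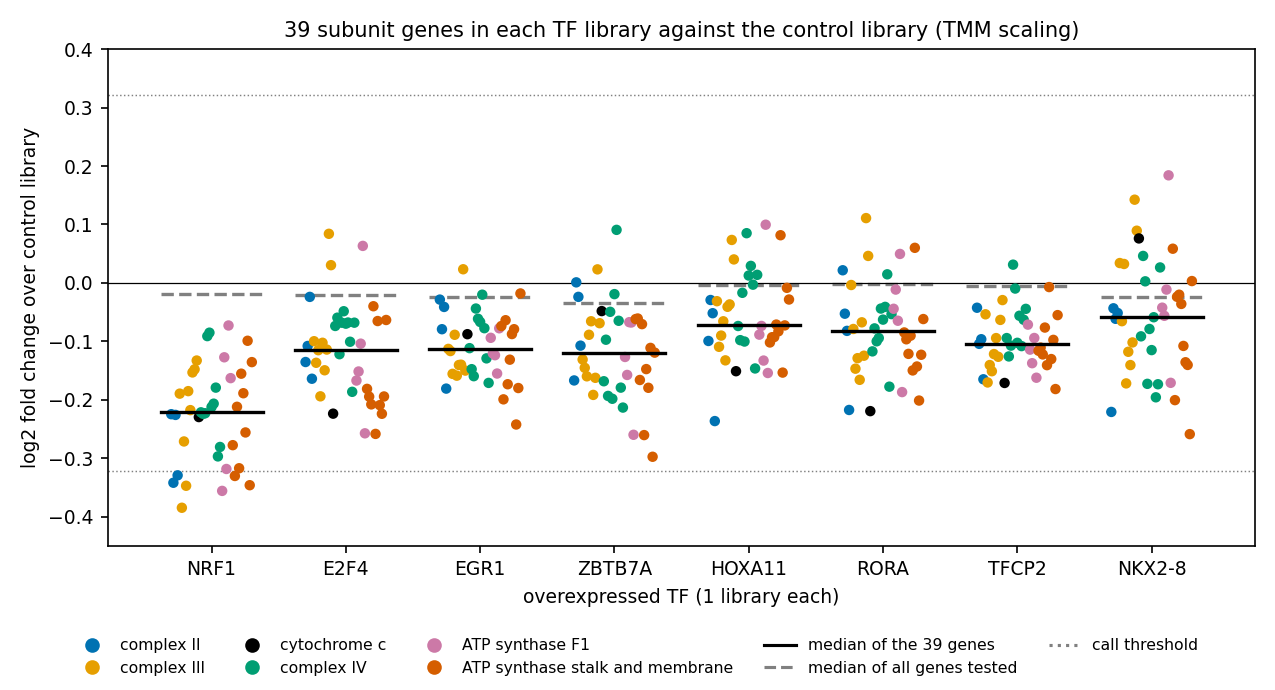
Log2 fold change of each of the 39 subunit genes (points, coloured by complex) in each TF library over the control library by TMM, with the median of the 39 genes (black line), the median of all genes tested (dashed) and the thresholds of a call (dotted). The NRF1 points lie between -0.38 and -0.07 and the other libraries centre between -0.12 and -0.06.

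The 39 genes varied little, as did other abundant genes. The SD of log2 CPM over the 9 libraries had a median of 0.083 for the subunit genes, with a range of 0.049 (ATP5MG, subunit g) to 0.119 (ATP5MF, subunit f). The median over all genes with a mean of at least 50 CPM was 0.0998, against 0.0822 for the 36 members there. With a mean of at least 100 CPM it was 0.0936, against 0.0830 for 29 members. Counting alone gave the log2 fold change of a typical member an interval of 0.08 to either side. By TMM, in the NRF1 library 35 of 39 intervals lay wholly below a ratio of 1. Against the same control library, 26 lay below with E2F4, 27 with EGR1, 24 with ZBTB7A, 17 with HOXA11, 22 with RORA, 28 with TFCP2 and 20 with NKX2-8. Wholly above 1 lay 3 with HOXA11, 1 with RORA and 4 with NKX2-8. The same share over all genes was not counted.

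Complex II had the lowest median in the NRF1 library, -0.28 over 4 genes, and 2 of the 4 were called. SDHB, the iron-sulfur subunit (chr1:17345217-17380665 on GRCh37, minus strand), had 106 CPM in the NRF1 library, 125, 128 and 135 CPM with E2F4, EGR1 and ZBTB7A, 132, 129.9, 125 and 131 CPM with HOXA11, RORA, TFCP2 and NKX2-8, and 135 CPM in the control library. The NRF1 library was below all 8 others, which lay close together. The ratio of NRF1 to control was 0.789 (0.741 to 0.839). SDHD, the small membrane anchor (chr11:111957497-111990736, plus strand), had 43.8 CPM with NRF1, 49.1, 48.5 and 51.1 CPM with E2F4, EGR1 and ZBTB7A, 46.7, 47.3, 49.1 and 53.1 CPM with HOXA11, RORA, TFCP2 and NKX2-8, and 55.02 CPM in the control library. The control was its highest library, and the ratio was 0.795 (0.721 to 0.877). SDHD was the called member nearest to the threshold, and ATP5F1C, at 0.802 (0.764 to 0.841), the one just outside. SDHA, the flavoprotein that oxidizes succinate, was at 234 CPM with NRF1, 235 to 278 CPM with the 7 other TFs and 274 CPM in the control library. SDHC, the other membrane anchor, was at 140.2, 153 to 161 and 164 CPM in the same order.

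Of the 9 complex III genes, 2 were called in the NRF1 library, and the median was -0.19. UQCRC2, which encodes core protein 2 (chr16:21963981-21994981 on GRCh37, plus strand), had the largest difference of all 39 genes. It stood at 218 CPM with NRF1, at 259, 263 and 257 CPM with E2F4, EGR1 and ZBTB7A, at 264, 269.6, 253 and 272 CPM with HOXA11, RORA, TFCP2 and NKX2-8, and at 285 CPM in the control library. The 7 other TF libraries and the control fell within 253 to 285 CPM, above the NRF1 library, and the ratio to control was 0.766 (0.733 to 0.799). UQCRB, also named the ubiquinone-binding protein, was at 223 CPM with NRF1, at 248, 267 and 267 CPM with E2F4, EGR1 and ZBTB7A, at 272, 259.9, 256 and 252 CPM with HOXA11, RORA, TFCP2 and NKX2-8, and at 284 CPM in the control library, a ratio of 0.786 (0.753 to 0.820).

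The other complex III genes, the catalytic UQCRFS1 and CYC1 among them, differed less than UQCRC2 and UQCRB. UQCRFS1, the Rieske iron-sulfur protein, was at 104 CPM with NRF1 and 125 CPM in the control library, a ratio of 0.828 (0.777 to 0.883). CYC1, cytochrome c1, was at 233 and 255 CPM in the same order, a ratio of 0.912 (0.873 to 0.952), and its lowest library was EGR1, at 229.9 CPM. UQCRC1 (core protein 1), UQCRH (the hinge protein), UQCRQ and UQCR10 had log2 fold changes of -0.19, -0.22, -0.19 and -0.15 with NRF1. UQCR11, a small subunit, was read 392 times with NRF1 and 504 times in the control, and its interval of 0.789 to 1.031 reached past 1.

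CYCS encodes the somatic cytochrome c, the electron carrier that also triggers apoptosis when it leaves the mitochondrion. It was at 229 CPM with NRF1, 230.0, 253 and 259.7 CPM with E2F4, EGR1 and ZBTB7A, 242, 231, 238 and 283 CPM with HOXA11, RORA, TFCP2 and NKX2-8, and 269 CPM in the control library. The NRF1, E2F4 and RORA libraries were low to a like extent, with log2 fold changes of -0.23, -0.22 and -0.22, and NKX2-8 was the highest. CYCS has 42 pseudogenes by name in the annotation. Reads that map to several places were not counted, so its level may be short of reads shared with these copies.

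None of the 10 complex IV genes was called in the NRF1 library, and their median was -0.22. The largest difference was that of COX7C, a small membrane subunit, at 232 CPM with NRF1 and 285 CPM in the control library, a ratio of 0.814 (0.780 to 0.849). COX8A was at 80.8 and 98.2 CPM in the same order, 0.823 (0.765 to 0.884). COX4I1, the common isoform of subunit 4, and COX5A and COX5B, which bind the matrix face, all had log2 fold changes of -0.22. COX6C, COX7A2 and COX7B had -0.21, -0.21 and -0.18.

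At the other end were COX6A1 and COX6B1. COX6A1 was at 62.4 CPM with NRF1, 63.4, 64.4 and 64.2 CPM with E2F4, EGR1 and ZBTB7A, 61.96, 62.2, 67.9 and 58.9 CPM with HOXA11, RORA, TFCP2 and NKX2-8, and 66.4 CPM in the control library. The NRF1 library fell among the others there, and the ratio was 0.939 (0.862 to 1.022). COX6B1, the subunit that bridges the monomers of the complex IV dimer, was at 157 CPM with NRF1, 161, 159 and 145 CPM with E2F4, EGR1 and ZBTB7A, 176, 161, 165 and 157 CPM with HOXA11, RORA, TFCP2 and NKX2-8, and 166 CPM in the control library. Its ratio was 0.943 (0.894 to 0.994) by TMM, and with library totals the log2 fold change was 0.06.

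The genes of the F1 head of ATP synthase differed among themselves. ATP5F1A, the alpha subunit (chr18:43660214-43684300 on GRCh37, minus strand), was at 479.6 CPM with NRF1, 547, 575 and 562 CPM with E2F4, EGR1 and ZBTB7A, 577, 595, 584 and 596 CPM with HOXA11, RORA, TFCP2 and NKX2-8, and 614 CPM in the control library. The gap between the NRF1 library and the next was wide, and the ratio was 0.781 (0.759 to 0.804). ATP5F1B, the catalytic beta subunit, was at 1201 CPM with NRF1, 1181, 1207 and 1176 CPM with E2F4, EGR1 and ZBTB7A, 1247, 1302, 1212 and 1262 CPM with HOXA11, RORA, TFCP2 and NKX2-8, and 1312 CPM in the control library. Here the NRF1 library lay among the other CLB_TF libraries, at a ratio of 0.915 (0.898 to 0.933).

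ATP5F1D, the delta subunit of the central stalk, was at 115 CPM with NRF1, 126, 108 and 115 CPM with E2F4, EGR1 and ZBTB7A, 129, 125, 113 and 137 CPM with HOXA11, RORA, TFCP2 and NKX2-8, and 121 CPM in the control library. It had the smallest difference of the 39 in the NRF1 library and the largest positive one of all 8 comparisons in the NKX2-8 library, a log2 fold change of 0.18. ATP5F1C (gamma, the rotating shaft) had -0.32 and ATP5F1E (epsilon) -0.16 with NRF1.

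Among the 10 stalk and membrane genes of ATP synthase, 2 were called in the NRF1 library. ATP5PD, the d subunit of the peripheral stalk, was at 120.1 CPM with NRF1, 132, 132 and 145 CPM with E2F4, EGR1 and ZBTB7A, 142, 141, 139.9 and 131 CPM with HOXA11, RORA, TFCP2 and NKX2-8, and 151 CPM in the control library. ATP5MF was at 70.9 CPM with NRF1, 78.8, 79.6 and 73.3 CPM with E2F4, EGR1 and ZBTB7A, 89.6, 82.8, 79.5 and 75.3 CPM with HOXA11, RORA, TFCP2 and NKX2-8, and 90.1 CPM in the control library. Both were lowest in the NRF1 library and highest in the control library, with ratios of 0.795 (0.750 to 0.843) and 0.786 (0.728 to 0.849). ATP5MF had the widest spread of the 39 genes, and its exons overlap a read-through transcript with PTCD1 over 8.57% of their bases. ATP5ME, subunit e, which helps the enzyme to form dimers, was at 74.9 CPM with NRF1, 68.7, 67.8 and 74.3 CPM with E2F4, EGR1 and ZBTB7A, 76.3, 69.8, 74.99 and 72.8 CPM with HOXA11, RORA, TFCP2 and NKX2-8, and 80.2 CPM in the control library. The NRF1 library fell among the others, at a ratio of 0.934 (0.864 to 1.008).

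The other peripheral stalk genes, ATP5PB (subunit b), ATP5PF (F6) and ATP5PO (OSCP), had log2 fold changes of -0.28, -0.21 and -0.32 with NRF1. ATP5MC1, ATP5MC2 and ATP5MC3, which encode the same mature c subunit of the membrane ring, had -0.16, -0.19 and -0.26, and ATP5MG had -0.14.

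**Figure D3:**
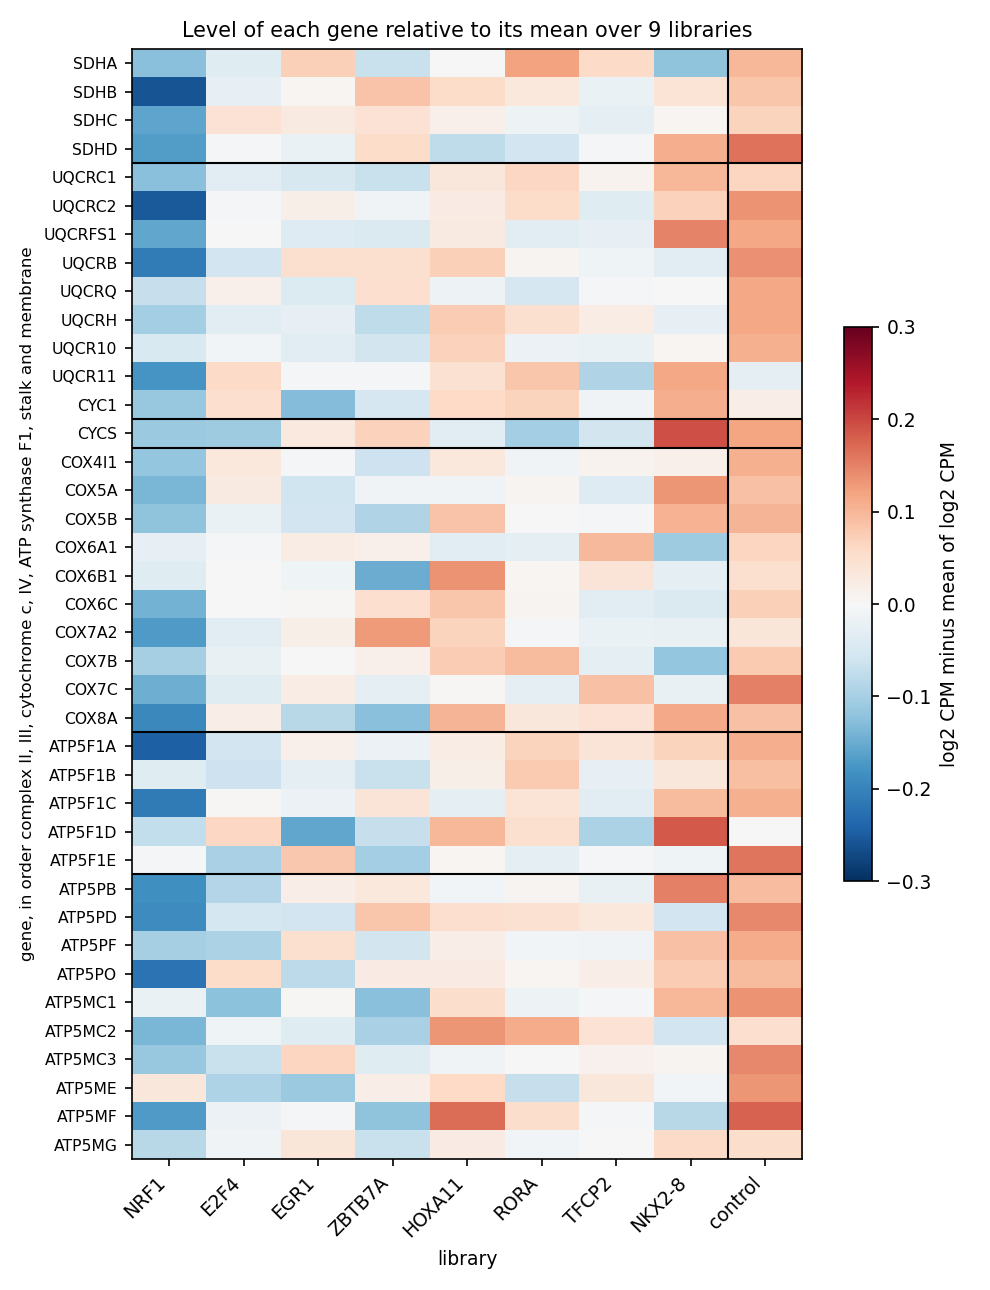
Level of each of the 39 genes in the 9 libraries, as log2 CPM by TMM minus the gene's mean over the 9 libraries, with the control library at the right and black lines between complexes. The NRF1 column is blue for most genes, the lowest for 29 of 39, and the control column is red for most, the highest for 20.

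Ratios between subunits of the same complex need no scaling between libraries. The pairs given here were chosen after their values had been seen, so they are a description with no test. The count of ATP5F1A over that of ATP5F1B, subunits present in equal number in the F1 head, was 0.399 (0.389 to 0.41) in the NRF1 library, 0.457 to 0.482 in the 7 other TF libraries and 0.468 (0.457 to 0.478) in the control library. ATP5F1C over ATP5F1B was 0.149 with NRF1, 0.164 to 0.182 with the other TFs and 0.171 in the control library. The other subunits of the head did not follow. ATP5F1D over ATP5F1B was 0.0954 with NRF1, 0.0897 to 0.109 with the other TFs and 0.0919 in the control library, and ATP5F1E over ATP5F1B was 0.0926, 0.0840 to 0.0978 and 0.0949 in the same order.

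UQCRC2 over UQCRC1, the pair of core proteins, was 0.612 (0.586 to 0.638) with NRF1, 0.646 to 0.699 with the other TFs and 0.7 (0.676 to 0.726) in the control library. SDHB over SDHA was 0.454 with NRF1, 0.468 to 0.557 with the other TFs and 0.492 in the control library, and there the intervals of several libraries overlapped. For COX5A over COX5B and for the c subunit genes ATP5MC1 and ATP5MC3 over ATP5MC2 the NRF1 library lay within the range of the other 8. In all, 4 of 9 such pairs had the NRF1 library outside that range.

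**Figure D4:**
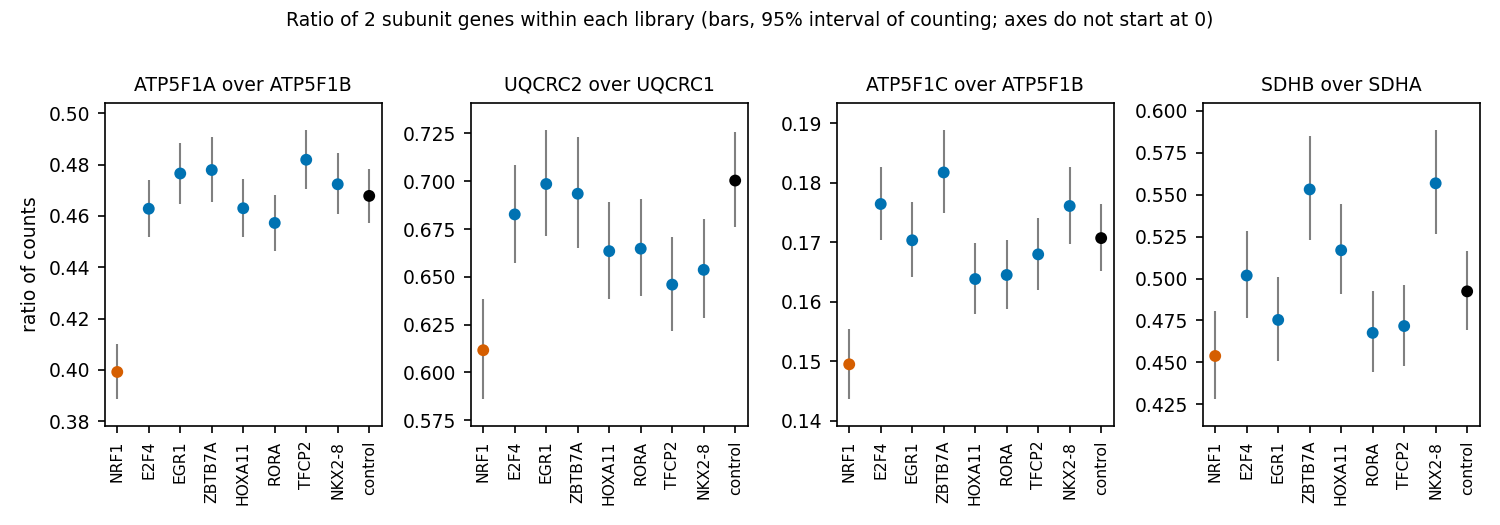
Ratio of counts of 2 subunit genes within each library for 4 pairs, with exact 95% intervals of counting as bars, the NRF1 library in orange, the 7 other TF libraries in blue and the control library in black. For ATP5F1A over ATP5F1B the NRF1 library is at 0.399 and the others between 0.457 and 0.482.

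Levels of different genes can be compared only per length. In TPM computed over the exon length of the count table, ATP5F1B was the highest of the 39, with a median of 1845 TPM over the 9 libraries, followed by UQCRH at 822 TPM. SDHC, UQCR11 and ATP5PO were the lowest, at 38.7, 46.4 and 47.5 TPM. The median of complex II was 85.3 TPM, against 187.5 TPM for complex III, 289.9 TPM for complex IV, 193.9 TPM for the F1 head and 160.5 TPM for the stalk and membrane genes. This order depends on the length used, since the exons of all transcripts were joined. SDHC has 14160 exon bases in the table and 1308 in its canonical transcript, and ranked the lowest of 39 with the first length and at 27 with the second. ATP5F1B and UQCRH were the 2 highest with both.

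The genes of the tissue-restricted isoforms of complex IV were silent or nearly so. COX6A2 and COX7A1, the heart and muscle forms, and COX7B2 had 0 counts in all 9 libraries, which allows up to 0.207 CPM in the shallowest. COX4I2, the form known from lung, had 1 count in the NRF1 library and 0 in the other 8. COX8C had 0 to 3 counts per library. COX6B2, a testis form, had 8 to 31 counts. The ubiquitous forms COX4I1, COX6A1, COX6B1 and COX8A described above, and COX7A2 with its relative COX7A2L at 113 CPM in the NRF1 library and 138 CPM in the control library, thus carried nearly all reads of these subunits.

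The mitochondrially encoded partners had a pattern of their own. The 6 measured were MT-CYB of complex III, MT-CO1, MT-CO2 and MT-CO3 of complex IV, and MT-ATP6 and MT-ATP8 of ATP synthase. In the NKX2-8 library 6 of 6 were called higher, against 13.5% of all genes, with a median log2 fold change of 0.44, while none of the 39 nuclear genes was. MT-CYB was at 2772 CPM with NKX2-8 and 1575 CPM in the control library. In the NRF1 library 4 of 6 were called lower, where 9.95% of all genes were, and the median was -0.36. With library totals 1 of 6 (MT-ATP8) was called lower there, where 2.8% of all genes were, and the median was -0.21.

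The ratio of mitochondrially encoded to nuclear counts within a complex, which again needs no scaling, followed this. For complex IV it was 19.3 with NKX2-8, 12.0 with NRF1, 13.96 to 15.6 with the 6 other TFs and 13.3 in the control library. For ATP synthase it was 0.897 with NKX2-8, 0.59 with NRF1, 0.618 to 0.783 with the others and 0.653 in the control library. For complex III it was 1.46 with NKX2-8, 0.87 with NRF1, 0.884 to 1.2 with the others and 0.802 in the control library. The NRF1 library was thus the lowest of the 9 in 2 of these 3 complexes. In the third it was the lowest of the 8 TF libraries and above the control. All mitochondrially encoded genes together took 5.59% of counts with NKX2-8, 3.55% with NRF1 and 4.04% in the control library, and the part of this share in the result was not tested.

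**Figure D5:**
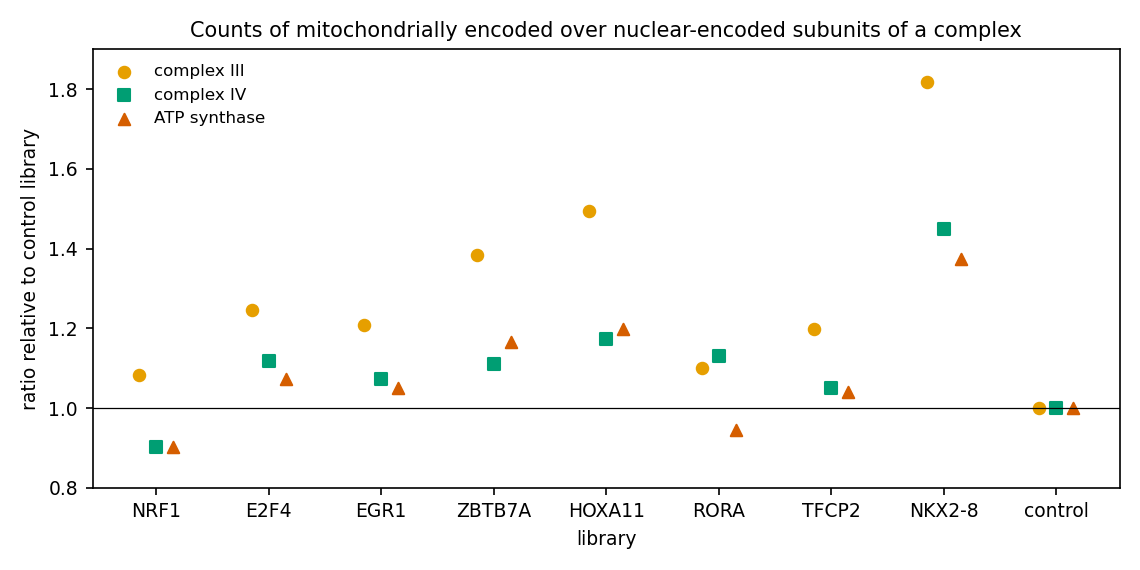
Counts of the mitochondrially encoded over the nuclear-encoded subunits of complexes III and IV and ATP synthase in each library, relative to the control library at 1, on an axis that starts at 0.8. NKX2-8 is the highest library for all 3 complexes, with 1.82 for complex III, and NRF1 is at 0.903 for complex IV and for ATP synthase.

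Related gene lists gave like medians in the NRF1 library by TMM, where 9.95% of all genes were called lower and 22% higher. With library totals 2.8% of all 15015 genes tested were called lower there, and 4618 were called higher. Of the nuclear subunits of complex I, NADH dehydrogenase, 35 of 37 were measured, 8 were called lower, none was called higher and the median was -0.22. With library totals none was called lower, 1 was called higher and the median was -0.07. NDUFB4 had the largest difference by TMM, at a ratio of 0.736 (0.691 to 0.782). Of 39 measured assembly factors, 8 were called lower, 2 were called higher and the median was -0.19, and with library totals 2 were called lower, 2 higher and the median was -0.04. SDHAF3, an assembly factor of complex II, was at 19.1 CPM with NRF1 and 29.4 CPM in the control library, and ATPAF2, which acts in the assembly of the F1 head, at 27.9 and 21.0 CPM. Of 14 further genes for accessory subunits and isoforms, 8 were measured, 2 were called lower, 1 was called higher and the median was -0.22. With library totals none was called lower and 1 was called higher, with a median of -0.07.

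Of 16 genes that regulate respiration or express mitochondrial DNA, 3 were called higher with NRF1, the inserted NRF1 among them, and 1 was called lower, against the same 22% and 9.95% of all genes. With library totals 6 were called higher and 1 lower, where 4618 and 420 of all 15015 genes tested were. TWNK, the mitochondrial replicative helicase, was at 51.5 CPM with NRF1 and 38.3 CPM in the control library, a ratio of 1.35 (1.22 to 1.49). PPARGC1A, a coactivator that works with NRF1, was at 5.23 and 3.37 CPM. TFB1M, a methyltransferase of mitochondrial ribosomal RNA and a known NRF1 target, was at 24.3 and 34.4 CPM, a ratio of 0.705 (0.620 to 0.802). TFB1M was highest in the control library and lay at 24.1 to 28.1 CPM with the 7 other TFs, with ZBTB7A just below NRF1. TFAM, which packages mitochondrial DNA and is another known target, was at 80.1 and 97.5 CPM, a ratio of 0.821 (0.764 to 0.883).

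The comparison of TF classes asks whether the CLB_TFs differ from the control TFs beyond the spread between TFs. The 4 TFs of a class stood in for replicates, and the control library was left out. By edgeR's quasi-likelihood test 0 of 39 members passed an adjusted p of 0.05, against 0.04% of all genes (6 of 15012). Under an unadjusted p of 0.05 in this test were 2 of 39 members, COX5B and COX8A, against 1531 of all 15012 genes. DESeq2 called 161 genes and none of the 39. COX8A had the lowest adjusted p by edgeR, 0.378. It was at 80.8, 93.7, 87.2 and 84.7 CPM with NRF1, E2F4, EGR1 and ZBTB7A, and 99.2, 94.7, 95.3 and 100.1 CPM with HOXA11, RORA, TFCP2 and NKX2-8, a log2 difference of -0.16 ± 0.06 (SE, n = 4 each). The 2 classes did not overlap, but were close at E2F4 and RORA. Its exons share 34.5% of their bases with another gene on the same strand.

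In 36 of 39 members the CLB_TF level was lower in this fit, with a median log2 difference of -0.06, and with library totals this held for 23. The median of all 15012 genes was 0.003. With library totals it was 0.048, and that of the members was -0.01. The share of all genes that were lower was not counted. The classes did not overlap in CPM for 5 of 39 members, against 6.79% of all genes. These were UQCRC1, COX5B, COX8A, ATP5F1A and ATP5F1B, all lower in the CLB_TF libraries. COX5B averaged 133 ± 4.04 CPM in the CLB_TF libraries and 145 ± 5.67 CPM in the control TF libraries (SD, n = 4 each). Leaving out the NRF1 library brought the median difference of the 39 genes to -0.02, against 0.007 for all genes, and the number of members that were lower to 28.

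Because NRF1 binds a palindromic GC-rich sequence, the promoters were searched for its core, GCGCATGCG, on both strands. RefSeq windows of 250 bases before to 50 after the transcription start, on GRCh38.p14, were found for 31 of the 39 genes (36 windows). Not searched were SDHC, UQCRB, CYC1, COX6C, ATP5F1B, ATP5F1D, ATP5MC3 and ATP5MF. The core was in 6 of these 31 genes, SDHD, COX6A1, ATP5F1C, ATP5PF, ATP5MC2 and ATP5ME, a share of 19.4%. It was in 1.92% of all 35116 windows and in 3.04% of the 15946 windows of expressed genes. The shorter GCGCATGC, which lies within the core, was also in SDHB, CYCS and COX5B, 9 of 31 genes, against 4.67% of windows of expressed genes. The stretches below show genes near both ends of the NRF1 response, and CYCS, which lay close to the median, each read on the strand of the gene, ending no later than its start, with the matched letters in capitals.
SDHD (chr11:112086723-112086812, plus strand): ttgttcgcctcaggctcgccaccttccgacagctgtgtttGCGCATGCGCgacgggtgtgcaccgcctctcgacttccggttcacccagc
ATP5F1C (chr10:7788115-7788176, plus strand): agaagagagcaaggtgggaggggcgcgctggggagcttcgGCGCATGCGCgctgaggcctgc
SDHB (chr1:17054185-17054272, minus strand): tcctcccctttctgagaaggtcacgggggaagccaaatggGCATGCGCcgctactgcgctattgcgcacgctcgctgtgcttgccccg
CYCS (chr7:25125382-25125469, minus strand): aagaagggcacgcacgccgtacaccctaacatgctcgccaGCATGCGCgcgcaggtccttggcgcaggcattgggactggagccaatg
COX6A1 (chr12:120437863-120437942, plus strand): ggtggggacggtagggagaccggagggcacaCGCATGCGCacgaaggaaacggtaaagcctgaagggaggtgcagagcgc
ATP5ME (chr4:674306-674394, minus strand): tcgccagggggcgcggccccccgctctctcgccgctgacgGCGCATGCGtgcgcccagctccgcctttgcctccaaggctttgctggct

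SDHD and ATP5F1C carried the whole palindrome, with the core on both strands, at 110 and 22 bases before the start. Their log2 fold changes in the NRF1 library were -0.33 and -0.32. COX6A1 and ATP5ME, with the core at 219 and 78 bases before the start, had -0.09 and -0.10, near the opposite end of the 39. The median was -0.20 for the 6 members with the core and -0.22 for the 25 without. Among all 450 measured genes with the core the median was -0.09, 8.22% were called higher and 10.4% lower. An exact match of letters describes the window, and binding was not measured here.

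Other motifs of nuclear respiratory genes were counted in the same windows, on both strands, again with members as genes and the background as windows. CCGGAAGT, the core of GABPA (nuclear respiratory factor 2), was in 9 of 31 members (29.0%), against 7.14% of windows of expressed genes. SDHD, COX5B and ATP5PF were among them beside an NRF1 core or short core. AAGATGGCG of YY1 was in 3 members (9.68%), against 3.28%, and GGGCGGGG of SP1 in 6 (19.4%), against 36.3%. TTTCCCGC of E2F factors was in COX7B alone, against 2.32% of windows of expressed genes, and COX7B had a log2 fold change of -0.10 in the E2F4 library. GCGTGGGCG of EGR1 was in COX5A alone, against 1.29%, and COX5A had -0.15 in the EGR1 library.

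Some counts are uncertain for reasons of annotation. The exons of 7 members overlap another gene on the same strand and those of 21 members an antisense gene, and the labels name a directional kit without the strand setting of the counting. By name, 31 members have pseudogenes in the annotation, 173 in all.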

How the data were processed

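RNA of 293T cells was sequenced 48 h after transfection, 1 library per condition. The authors checked reads with FastQC 0.11.2, aligned them to GRCh37 (STAR 2.6.0c), and counted reads with a single place in the genome for each gene (featureCounts 1.6.3). These raw counts, without normalization, were deposited for 57163 genes. Gene IDs without version were matched to GENCODE symbols (35408 of 36202 Ensembl IDs). Groups came from the treatment labels, and the TF classes from the methods of the study.

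Counts were scaled by TMM (edgeR 4.0.16, R 4.3.3) to CPM, and a prior count of 2 entered the log2 fold changes. Calls needed a fold of 1.25 or more and a level of 1 CPM or more in 1 of the libraries. The 95% intervals of ratios are exact and conditional on the sum of the counts. No p is given for 1 library against 1. TF classes were compared by edgeR's quasi-likelihood test with Benjamini-Hochberg adjustment over all genes, and by DESeq2 1.42.0. Totals were 14177970 to 18915400 counts. Alternatives were library totals, DESeq2 size factors, other minimum levels and prior counts, another reference and leaving out each TF library.

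The members and lists were chosen with earlier results of these data known. Values in every library are given for members called in the NRF1 library, the 5 highest and 5 lowest log2 fold changes there and the 5 widest ranges, and also, chosen after the values were seen, for CYCS and COX8A.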

Additional observations from a re-analysis of the deposited data

Results flagged for a closer look

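In a group of 4 TF libraries a value was taken for a closer look where the gap to its neighbour, as a share of the range of the group, was over Dixon's critical value at 95%. Of 78 groups (39 genes in 2 classes), 4 were taken, and chance gives about 1 in 20. SDHC was at 140.2 CPM in the NRF1 library, with the next CLB_TF library at 159 CPM. UQCRC2 was at 218 CPM in the NRF1 library, with the next at 257 CPM. ATP5PB was at 360.0 CPM in the NKX2-8 library, with the next control TF library at 326 CPM. ATP5PD was at 131 CPM in the NKX2-8 library, with the next at 139.9 CPM. The cause was not tested.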

How the results depend on the processing

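With library totals, and with totals that left out mitochondrially encoded genes and the inserted TFs, the number of members called lower in the NRF1 library was 0 and 0, and their median log2 fold change was -0.072 and -0.076. Of all 15015 genes tested, 420 and 428 were called lower in the same order. The number of members was 0 also against the mean of the control TFs, where 1043 of all 14866 genes were called lower. Against that mean the median was -0.030 for EGR1 and 0.0092 for HOXA11. With totals that left out those genes the median was -0.037 for ZBTB7A. With library totals the NRF1 library was the lowest for 8 members and the highest for 3, against 9.67% and 29.6% of all genes. The genes past the class test, 6 of 15012, were 161 by DESeq2, 1 with library totals, 795 with no filter on low counts, 0 with a mean of at least 5 CPM, and 0 to 60 with each TF library left out (60 without EGR1), and members past it were 0 each time. The median for NKX2-8, -0.06 by TMM, was 0.0026 with totals that left out those genes and 0.018 against the other control TFs. Another 199 alternative values of main results kept their sign and stayed within the error or 1.5 times the count. No paired analysis was possible because each condition had 1 library.

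With library totals COX6A1, COX6B1, ATP5F1B, ATP5F1D and ATP5ME had log2 fold changes of 0.06, 0.06, 0.02, 0.08 and 0.05 in the NRF1 library. A single library per condition and a shared control limit every fold. The spread between cultures was not measured, so differences of the size seen here cannot be told apart from it.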
